A study of Homo sapiens with 2 samples.

Results

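The genes described here encode the cohesin ring, the proteins that load and release it, and the boundary factor CTCF: STAG1, STAG2, SMC1A, SMC3, RAD21, NIPBL, WAPL and CTCF. They were taken as a named set of 8 among 20037 protein-coding genes of the RefSeq table, and every called interval inside each gene or within 100 kb of either end was collected, 6 with siEWS-FLI and 26 with siNEG. The data are CUT&Tag, in which a transposase tethered to an antibody cuts and tags DNA where the antibody's target sits, run for EWS-FLI in the established cell line TC32, derived from an Ewing sarcoma. One library came from TC32 cells that received siEWS-FLI and one from TC32 cells that received siNEG, an arm whose name the labels do not spell out. With 1 library in each group no difference has a replicate check, and no test between the groups was made. The antibody is not named in the labels, and the level of the fusion protein is not measured by these files.

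Cohesin is a ring-shaped complex that holds sister chromatids together and extrudes loops of chromatin during interphase. SMC1A and SMC3 form the arms of the ring, RAD21 closes it, and STAG1 or STAG2 binds RAD21 as alternative subunits. NIPBL, with its partner MAU2, loads cohesin and drives extrusion, WAPL opens the ring for release, and CTCF is the zinc finger protein at which extrusion usually halts. EWS-FLI joins a part of EWSR1 to the ETS factor FLI1 and recognises DNA containing GGAA, both as single ETS sites and as repeats. STAG2 is among the genes recurrently inactivated in Ewing sarcoma.

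Promoter sequences are shown for 4 genes: NIPBL and CTCF, the members with a promoter site in both libraries, STAG1, with a site in siNEG cells and an ETS core, and WAPL, with no promoter site in either library. Each line gives the 250 bases before the RefSeq start on GRCh38.p14, on the strand of the gene. Capitals mark CCGGAA, the core of a high-affinity ETS site, or TTCCGG, its reverse complement. The regions are chr5:36876519-36876768 (plus strand) for NIPBL, chr16:67562276-67562525 (plus) for CTCF, chr3:136752379-136752628 (minus) for STAG1 and chr10:86521793-86522042 (minus) for WAPL.
NIPBL: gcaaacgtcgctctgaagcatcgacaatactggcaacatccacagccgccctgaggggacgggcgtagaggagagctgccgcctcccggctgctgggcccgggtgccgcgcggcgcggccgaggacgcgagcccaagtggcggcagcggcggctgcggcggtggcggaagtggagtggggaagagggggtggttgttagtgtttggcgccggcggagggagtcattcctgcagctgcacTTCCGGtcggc
CTCF: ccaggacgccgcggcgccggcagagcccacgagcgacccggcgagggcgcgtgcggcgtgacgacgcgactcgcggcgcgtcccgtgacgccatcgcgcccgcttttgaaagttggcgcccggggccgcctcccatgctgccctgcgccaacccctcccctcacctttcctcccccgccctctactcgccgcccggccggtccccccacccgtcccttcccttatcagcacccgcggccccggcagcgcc
STAG1: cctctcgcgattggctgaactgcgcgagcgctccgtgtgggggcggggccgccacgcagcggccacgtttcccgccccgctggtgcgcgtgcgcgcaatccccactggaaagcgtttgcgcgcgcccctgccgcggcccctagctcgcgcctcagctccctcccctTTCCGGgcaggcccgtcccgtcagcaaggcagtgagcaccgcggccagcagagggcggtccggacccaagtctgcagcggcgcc
WAPL: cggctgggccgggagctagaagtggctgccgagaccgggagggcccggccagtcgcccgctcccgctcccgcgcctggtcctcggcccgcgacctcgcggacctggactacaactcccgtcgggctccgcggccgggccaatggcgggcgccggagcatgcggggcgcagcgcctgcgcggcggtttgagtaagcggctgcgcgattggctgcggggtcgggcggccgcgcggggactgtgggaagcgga

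The NIPBL window holds 1 ETS core, 11 to 6 bases before the start, and the STAG1 window holds 1, at 84 to 79 bases before the start. The CTCF and WAPL windows hold none. RefSeq promoter windows of 300 bases, running from 250 before to 50 after a start, were listed for 7 of the 8 genes, 10 windows in all, and RAD21 had none listed. Searched on both strands, CCGGAA was present in 4 of the 10 windows, against 21.2% of the 22199 windows of all protein-coding genes. By gene it was present for 3 of 7, NIPBL, STAG1 and SMC1A, against 26.6% of 15843 genes. In SMC1A it lay 21 to 16 bases before the upstream of its 2 listed starts. The shorter GGAA, which is contained in CCGGAA, was present in all 10 windows and in 95.1% of all windows. GGAAGGAA was found in 1 window, at the middle of the 3 listed STAG2 starts, against 3.70% of all windows, and a run of 3 GGAA units in 0 of 10, against 0.0811%. CCCTC, the core of the CTCF motif, was present in 8 of the 10 windows, against 76.6% of all windows, and for 6 of the 7 genes, SMC1A being the exception, against 80.5% of genes. A match of these letters is a description of the window and not a binding site.

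Sites were fewer and weaker in siEWS-FLI cells over the whole series as well. There were 6370 intervals with siEWS-FLI and 16284 with siNEG, with a median summit pileup of 5 and 8 reads. The summit pileup counts the raw extended reads that cover an interval's summit and was recovered from the deposited fold and p-value. Library-wide background stood at 0.239 reads per base with siEWS-FLI and 0.348 with siNEG, a ratio of 0.687. With an assumed genome of 2700000000 bases it corresponds to 3229200 and 4703400 reads. Of these, 1629620 and 1853915 were estimated to lie in a mitochondrial window of 10000 bases. Reads outside that window stood in a ratio of 0.561. Mitochondrial reads beyond the window were not removed, so neither ratio measures nuclear depth alone. At its library-wide background a pileup of 4 reads was the smallest that either library could call. Of 5 genes reported as EWS-FLI1 targets, STEAP1 alone had a site within 1 kb of a start (19 reads with siNEG, not called with siEWS-FLI). Of 12 liver, blood and epithelial marker genes 0 had such a site in either library, where over all protein-coding genes 12.3% had one with siEWS-FLI and 34.7% with siNEG. For 6 of these 12 genes and for the target CCND1, whose starts were not listed, a summit within 1 kb of either gene end was counted. Sites further away than 1 kb were not searched at the target and marker genes.

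Promoter sites of the cohesin and CTCF genes were called for 2 of 8 genes in siEWS-FLI cells and 7 of 8 in siNEG cells. A promoter site here is an interval whose summit lay within 1 kb of an annotated start, or of either gene end for RAD21, whose start was not listed. Over all protein-coding genes the same rule called 12.3% with siEWS-FLI and 34.7% with siNEG. Of the 7 siNEG sites, 2 overlapped a siEWS-FLI interval, where the background is 30.7% of the 6944 genes with a siNEG promoter site. Those 2 were NIPBL and CTCF, while STAG1, STAG2, RAD21, SMC1A and SMC3 had siNEG sites alone and WAPL had none. All intervals given for pileups and ratios cover counting error only, and amplification by 14 and then 20 cycles of PCR means that reads are not independent molecules.

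**Figure D1:**
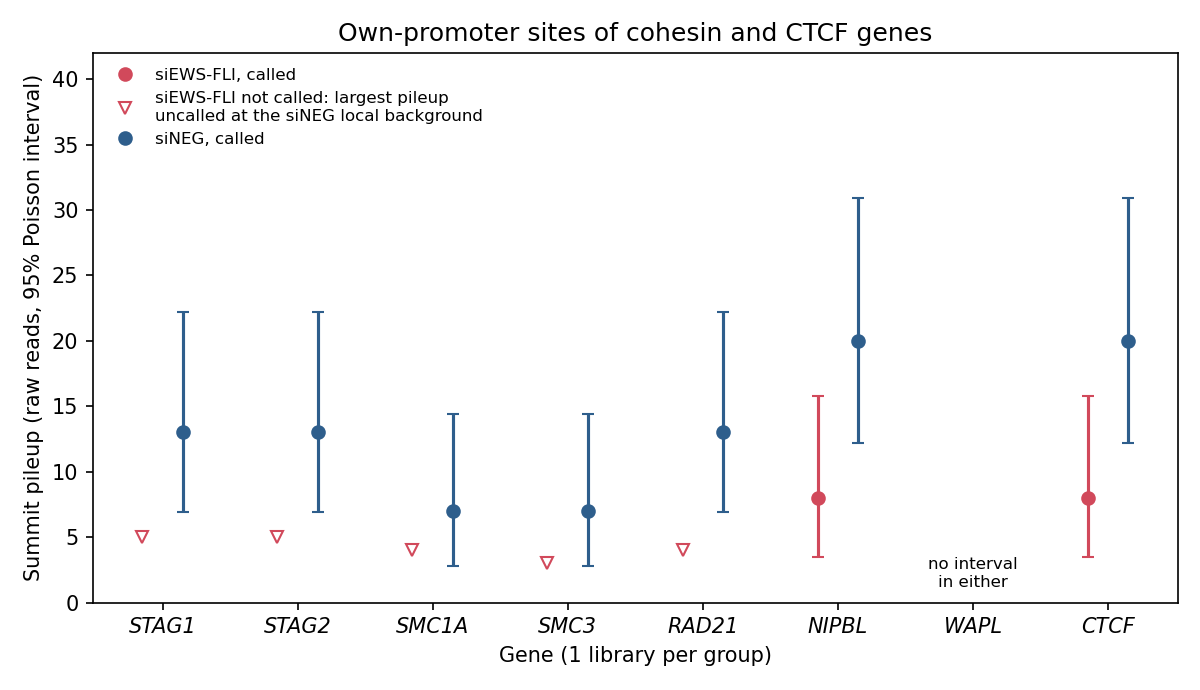
Summit pileup in raw reads at the promoter of each gene, siEWS-FLI left of siNEG, with 95% Poisson intervals. Open triangles mark, for sites not called with siEWS-FLI, the largest pileup under the calling limit. That limit takes the local background from siNEG and may be too high for siEWS-FLI. NIPBL and CTCF reached 8 reads with siEWS-FLI and 20 with siNEG, and the other 5 siNEG sites had 7 or 13 reads.

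NIPBL, the cohesin loader, had 8 reads at its promoter with siEWS-FLI (95% interval 3.45 to 15.8) and 20 with siNEG (12.2 to 30.9). The siEWS-FLI interval was 200 bases wide, at chromosome 5, 36876514 to 36876713, and lay wholly inside the 956-base siNEG interval at 36875947 to 36876902. The siEWS-FLI summit lay 106 and the siNEG summit 47 bases before the NIPBL start, so both fall inside the NIPBL sequence printed above. The same bases serve NIPBL-DT, a long noncoding RNA transcribed from the other strand, whose start is 75 bases from that of NIPBL.

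CTCF had the same pair of values, 8 reads with siEWS-FLI (3.45 to 15.8) and 20 with siNEG (12.2 to 30.9). The siEWS-FLI interval ran over 329 bases of chromosome 16, 67562011 to 67562339, and the siNEG interval over 531, 67561969 to 67562499. Their summits were 11 bases apart and lay 343 and 332 bases before the CTCF start, upstream of the printed CTCF sequence. They were closer to the start of CTCF-DT, a divergent noncoding RNA, at 126 and 115 bases.

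At both genes the pileup ratio, siEWS-FLI over siNEG, was 0.400 (95% interval 0.152 to 0.948). Divided by the ratio of library-wide backgrounds it was 0.583 (0.222 to 1.38), and divided by that of reads outside the mitochondrial window 0.713 (0.271 to 1.69). Both scaled intervals include 1, so at this depth a lower signal per read was not detectable at either promoter. Over all protein-coding genes, 95 had a siNEG promoter pileup of exactly 20 reads. The strongest site was shared in 36.8% of them, and the siEWS-FLI pileup of the 35 shared ones had a median of 8 reads and ran between 5 and 13. NIPBL and CTCF thus sat at the median of genes with an equal siNEG pileup that were called in both libraries. Genes with no siEWS-FLI call have no pileup in that library, so the ratios and this median leave out the lowest siEWS-FLI values.

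The 2 alternative STAG subunits had the same promoter pileup in siNEG cells and no call in siEWS-FLI cells. STAG1 had 13 siNEG reads (6.92 to 22.2) on chromosome 3, 136752242 to 136752791, with a summit 165 bases before its start, inside the printed sequence, and 128 bases from the start of STAG1-DT. STAG2 had 13 siNEG reads (6.92 to 22.2) on chromosome X, 123961343 to 123961668, with a summit 168 bases after the middle of its 3 listed starts. That summit also lay 139 bases from the start of STAG2-AS1, an antisense noncoding RNA. If its local background equalled that of siNEG, the siEWS-FLI library could have held 5 reads at each of these sites and still made no call. Its own background there is not known, so limits reckoned this way may be too high. At the NIPBL and CTCF promoters it was 0.340 and 0.440 reads, against 1.34 and 1.46 with siNEG. One siEWS-FLI site of 5 reads in the RAD21 window was called where the same reckoning gives a limit of 7.

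The ring subunits were likewise called in siNEG cells alone. RAD21, the subunit that closes the ring, had 13 reads (6.92 to 22.2) on chromosome 8, 116874771 to 116875161, 117 bases beyond its upper gene end, with a calling limit of 4 reads by the same reckoning. SMC1A had 7 reads (2.81 to 14.4) on chromosome X, 53422226 to 53422942, 30 and 44 bases from its 2 listed starts and 189 from that of RIBC1, a protein-coding gene on the opposite strand. SMC3 had 7 reads (2.81 to 14.4) on chromosome 10, 110567470 to 110567942, 32 bases before its start. By that reckoning the calling limits were 4 reads at SMC1A and 3 at SMC3. WAPL, the release factor, had no promoter interval in either library; its start lies on chromosome 10 at 86521792.

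Depth moved with these missing calls, and its part in them was not tested. A pileup of 13 corresponds to 8.93 reads by the ratio of backgrounds and to 7.30 by that of reads outside the mitochondrial window. The limits at STAG1, STAG2 and RAD21, with the local background of siNEG, were 5, 5 and 4 reads. Before scaling, the 95% interval of 13 reads was 6.92 to 22.2, and the scaled values carry the same counting error. A pileup of 7 corresponds to 4.81 and 3.93 reads, beside limits of 4 at SMC1A and 3 at SMC3. Mitochondrial reads may remain in both ratios, so values at nuclear depth alone were not estimated. Among all genes with a siNEG promoter pileup of 13 reads 23.4% of 222 were shared, and among those with 7 reads 6.84% of 541, against 0 of 3 and 0 of 2 members. Neighbouring genes that share a start region enter these counts more than once.

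**Figure D2:**
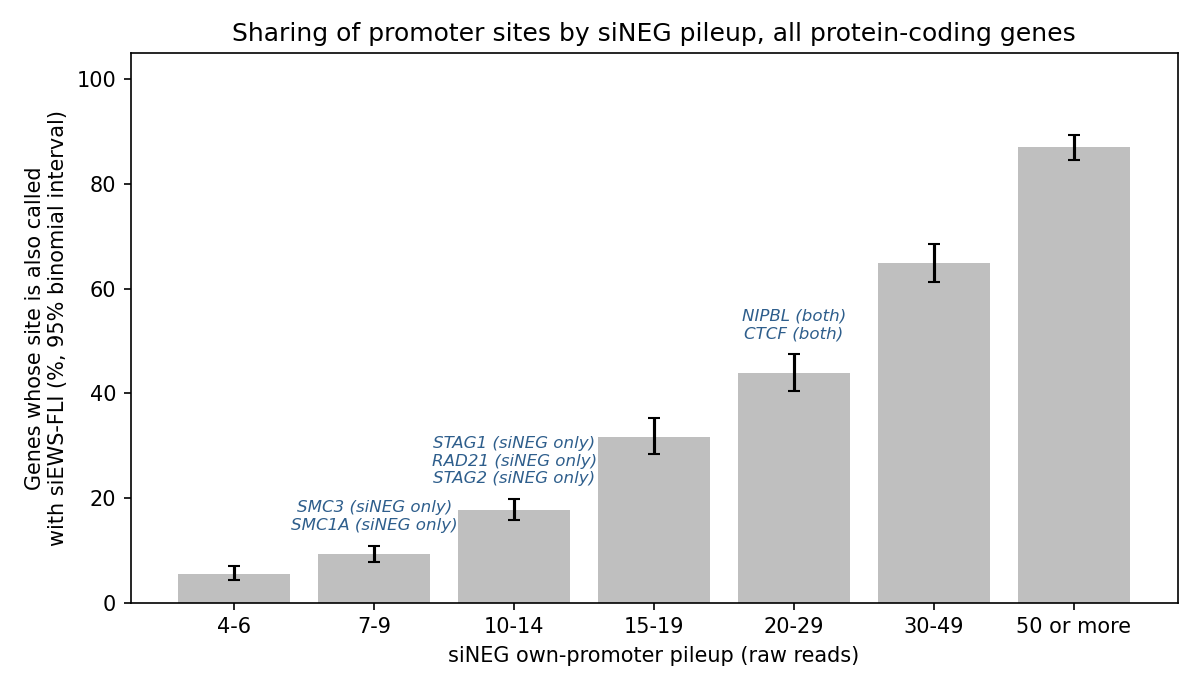
Share of protein-coding genes, in percent with 95% exact binomial intervals, whose strongest siNEG promoter site was also called with siEWS-FLI, by siNEG pileup in raw reads. The share was 9.24% at 7 to 9 reads, 17.7% at 10 to 14 and 43.9% at 20 to 29, the classes that hold the 7 named genes with a siNEG site.

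Within the siNEG library the promoter sites of the set were of middling strength. The 7 called members ran between 7 and 20 reads with a median of 13, against a median of 12 and quartiles of 8 and 25 over the 6944 genes called. Of those genes 16.9% had fewer than 7 reads, 51.3% fewer than 13 and 67.9% fewer than 20. In the siEWS-FLI library 49% of 2467 genes with a promoter site had fewer than the 8 reads of NIPBL and CTCF. The deposited fold enrichment, the authors' own value over the local background of each library, was 6.72 with siEWS-FLI and 8.97 with siNEG at NIPBL, and 6.25 and 8.54 at CTCF. Each fold describes its own list and is not a comparison between them.

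All 7 members with a listed start have another gene's start on the opposite strand within 1 kb, against 25.9% of 15842 protein-coding genes. The partners are the noncoding RNAs STAG1-DT, STAG2-AS1, LOC105378483 (at SMC3), NIPBL-DT, WAPL-DT, and both CTCF-DT and LOC124903703 at CTCF, and the protein-coding RIBC1 at SMC1A. RAD21-AS1 has an end 469 bases from the RAD21 summit. A read at such a site cannot be assigned to one gene of the pair. Over all genes, 59.1% of those with an opposite start had a siNEG promoter site, against 29.2% of those without. With siNEG, 63.4% of genes with CCGGAA in a promoter window (95% interval 61.9 to 64.9) and 27.3% of genes without it (26.5 to 28.2) had a promoter site, and with siEWS-FLI 25.4% (24.1 to 26.7) and 9.26% (8.74 to 9.80). CTCF, STAG2 and SMC3 had siNEG sites with no CCGGAA in their windows, and WAPL, with a GC content of 76.3%, had neither. The siNEG summits of CTCF and STAG2 lay outside the searched windows, so the sequence at those summits was not read.

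Away from the promoters the windows held 4 siEWS-FLI and 19 siNEG intervals, most of them weak. In all, 4 of 26 siNEG intervals were shared (15.4%, 4.36 to 34.9), against 15.6% of all siNEG intervals, and 4 of 6 siEWS-FLI intervals (66.7%, 22.3 to 95.7), against 41.1% of all. The siNEG intervals called in that library alone had 4 to 18 reads, with a median of 8.50. The number of intervals per gene window had a median of 0.5 with siEWS-FLI and 3 with siNEG over the 8 genes, and of 1 and 2 over all protein-coding genes. Any interval was present for 4 of 8 genes with siEWS-FLI and 8 of 8 with siNEG, against 59.3% and 82.9% of all.

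**Figure D3:**
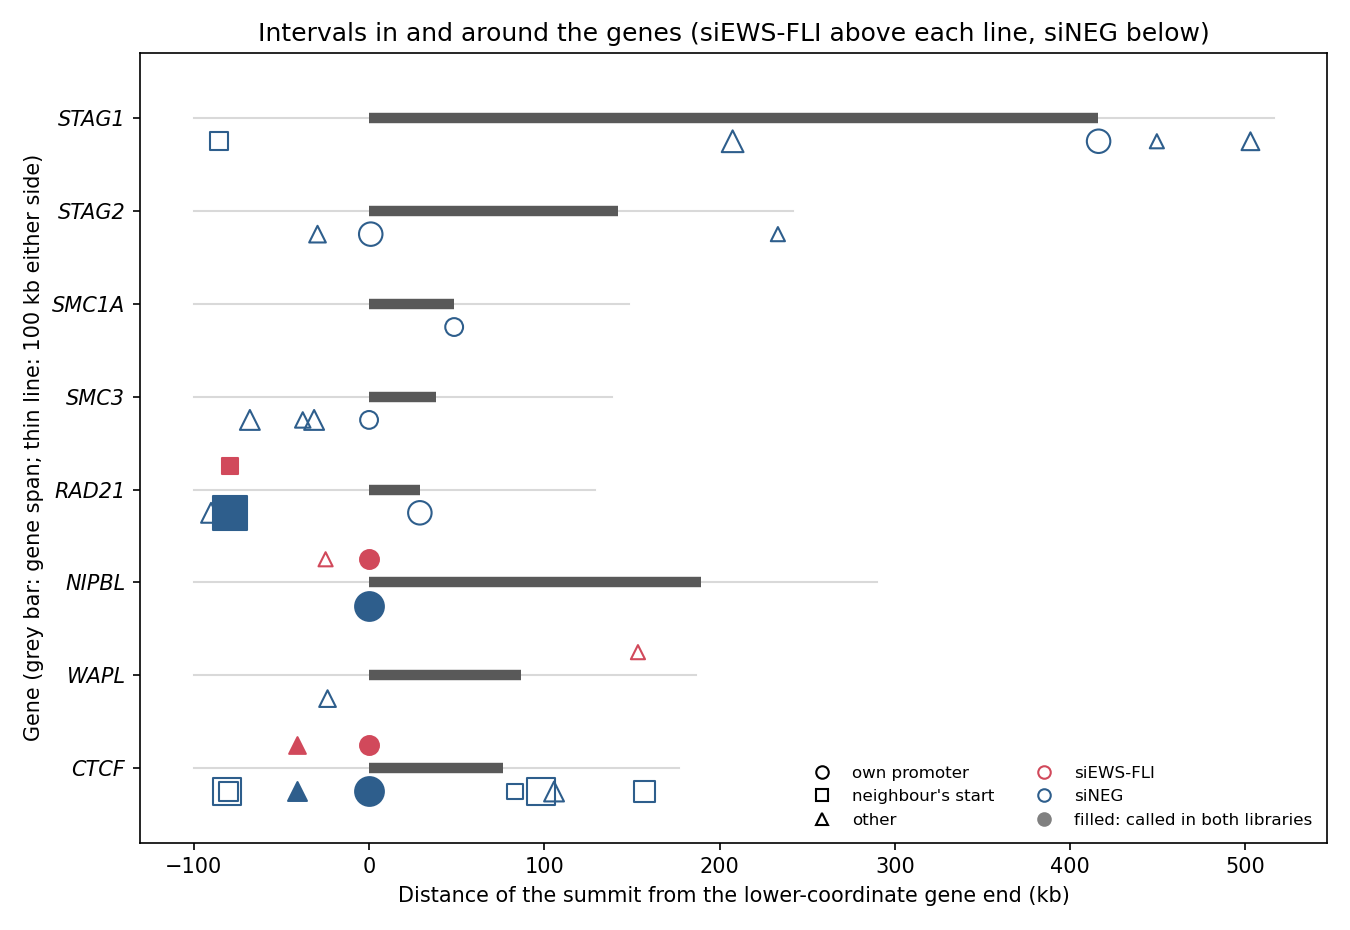
Summits in and around each gene, as distance in kb from the lower-coordinate gene end, with siEWS-FLI above and siNEG below each line; larger symbols have more reads and filled ones were called in both libraries. The filled symbols are the promoters of NIPBL and CTCF, a neighbour's site in the RAD21 window and a site in the CTCF window.

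The strongest site in any of the windows belonged to neighbours of RAD21. It had 5 reads with siEWS-FLI (1.62 to 11.7) and 29 with siNEG (19.4 to 41.6), a ratio of 0.172 (0.0521 to 0.450). Division by the ratio of reads outside the mitochondrial window gave 0.307 (0.0928 to 0.802). Over all protein-coding genes, shared promoter sites with 20 to 29 siNEG reads had a median ratio of 0.314 before such division. The siNEG interval of the 29-read site, on chromosome 8, 116766243 to 116766788, lies 79.4 kb from RAD21. Its summit lies 27 bases from an end of UTP23, a ribosome biogenesis gene. The same summit lies 123 bases from an end of EIF3H, which encodes a subunit of translation initiation factor eIF3. A second siNEG interval of 9 reads lay inside EIF3H, 90.2 kb from RAD21, and was not called with siEWS-FLI.

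The CTCF window was the fullest, with 2 siEWS-FLI and 8 siNEG intervals, and 5 of the siNEG ones lay within 1 kb of a neighbour's start. Its other shared site, inside RIPOR1 on chromosome 16 (67521288 to 67521644 with siNEG), had 6 reads with siEWS-FLI (2.2 to 13.1) and 8 with siNEG (3.45 to 15.8), a ratio of 0.75 (0.214 to 2.46). With siNEG alone there were 18 reads (10.7 to 28.4) between ATP6V0D1, which encodes a subunit of the vacuolar proton pump, and ATP6V0D1-DT, with a second interval of 8 reads nearby. There were also 18 reads (10.7 to 28.4) between ACD, which encodes a telomere shelterin protein, and PARD6A, a cell polarity gene. GFOD2 had 10 reads near its start and CARMIL2 had 5, and an interval of 9 reads lay inside C16orf86. With the local background of siNEG, the siEWS-FLI calling limits would be 7 reads at ATP6V0D1 and 8 at ACD and PARD6A. The siEWS-FLI background at these sites is not known, so the limits may be too high. At the CTCF promoter the local background was 0.440 reads with siEWS-FLI and 1.46 with siNEG.

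The windows of the STAG genes held siNEG intervals only. STAG1, the longest of the genes at 416 kb, was the only member with a site inside its own gene body away from a start, with 11 siNEG reads (5.49 to 19.7) on chromosome 3, 136543566 to 136543799. Around it were 7 reads near the start of PCCB, a subunit of propionyl-CoA carboxylase, 7 inside SLC35G2 and 4 at an intergenic site 33.4 kb from STAG1. STAG2 had 6 reads 29.5 kb away, nearest to XIAP, an inhibitor of apoptosis, and 4 reads 91.2 kb away.

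The SMC3 window had siNEG intervals of 9, 5 and 9 reads 68.1, 37.9 and 31.4 kb from the gene, the first of them inside DUSP5, which encodes a phosphatase of ERK, and the others closest to its end. SMC1A had nothing but its promoter site. siEWS-FLI intervals with no siNEG counterpart were found near NIPBL (24.8 kb away) and WAPL (66.9 kb away), each 200 bases wide with 4 reads (1.09 to 10.2), the smallest pileup that can be called. WAPL also had a siNEG interval of 6 reads 23.7 kb away.

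Promoter sites of related genes were compared by the same rule. The 6 lists hold 36 genes of cohesin regulators, condensin, the SMC5/6 complex and boundary factors. A promoter site was called for 5 of them with siEWS-FLI and 25 with siNEG, against 12.3% and 34.7% of all genes. The same shares of all genes are the background for the counts of each list below. A siEWS-FLI interval overlapped 5 of the 25 siNEG sites, against 30.7% of the 6944 genes with a siNEG promoter site. These 5 were the genes called with siEWS-FLI. Start positions were not listed for 4 of the 36, and either gene end was used for these. Of the 25 siNEG sites, 16 also lay within 1 kb of another gene's start, or of either end of a gene whose start was not listed.

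Among 7 regulators of loading, release and acetylation, 1 was called with siEWS-FLI and 6 with siNEG. MAU2, the partner of NIPBL, had 8 reads with siEWS-FLI (3.45 to 15.8) and 22 with siNEG (13.8 to 33.3), a ratio of 0.364 (0.140 to 0.848), beside 8 and 20 reads at NIPBL. Divided by the ratio of reads outside the mitochondrial window it was 0.648 (0.249 to 1.51), an interval that includes 1, and the site also lies at the start of SUGP1. The acetyltransferase genes ESCO2 and ESCO1 had 19 and 9 siNEG reads, and CDCA5, which encodes the WAPL antagonist sororin, had 10. PDS5B and PDS5A, cofactors of WAPL, had 5 and 4, and HDAC8, the SMC3 deacetylase, had none.

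Of 4 genes that protect or cleave cohesin, 0 were called with siEWS-FLI and 3 with siNEG. SGO2 had 16 siNEG reads, the securin gene PTTG1 and the shugoshin gene SGO1 had 7 each, and ESPL1, which encodes separase, had none. Of 5 genes of meiotic cohesin or of CTCFL, the CTCF paralogue, 0 were called with siEWS-FLI and 2 with siNEG, STAG3 with 9 reads at a site shared with the start of GPC2, and RAD21L1 with 7.

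Condensin, the complex that compacts mitotic chromosomes, had 2 of 8 genes called with siEWS-FLI and 6 with siNEG. NCAPD2 had the strongest site of these lists, 13 reads with siEWS-FLI (6.92 to 22.2) and 100 with siNEG (81.4 to 122), a ratio of 0.130 (0.0669 to 0.233), next to the start of MRPL51. NCAPG2 had 7 and 29 reads, a ratio of 0.241 (0.0893 to 0.563). Divided by the ratio of reads outside the mitochondrial window, these were 0.232 (0.119 to 0.414) for NCAPD2 and 0.430 for NCAPG2, whose interval began at 0.159 and ended at about 1. Divided by the ratio of library-wide backgrounds, NCAPG2 stood at 0.352 (0.130 to 0.820), so whether its interval reaches 1 depends on the scale. Before either division, shared promoter sites of all protein-coding genes had a median ratio of 0.138 at 50 or more siNEG reads. At 20 to 29 siNEG reads that median was 0.314. NCAPH2, NCAPG, NCAPD3 and NCAPH had 18, 11, 9 and 6 siNEG reads, and SMC2 and SMC4 had no site.

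The SMC5/6 complex acts in DNA repair, and 1 of its 6 genes was called with siEWS-FLI and 4 with siNEG. SMC6 had 11 reads with siEWS-FLI (5.49 to 19.7) and 37 with siNEG (26.1 to 51.0) at a site shared with the start of GEN1. The ratio was 0.297 (0.137 to 0.595). Divided by the ratio of reads outside the mitochondrial window it was 0.530 (0.244 to 1.06), and by that of library-wide backgrounds 0.433 (0.199 to 0.867). NSMCE1, SMC5 and NSMCE2 had 21, 8 and 7 siNEG reads. Of 6 other boundary or looping factors, 1 was called with siEWS-FLI and 4 with siNEG. ZNF143, a zinc finger activator of promoters, had 10 reads with siEWS-FLI (4.80 to 18.4) and 50 with siNEG (37.1 to 65.9), a ratio of 0.2 (0.0904 to 0.399). Divided by the ratio of reads outside the mitochondrial window it was 0.356 (0.161 to 0.711). The ZNF143 site is shared with the start of ZNF143-AS1. MAZ, ADNP and YY1 had 13, 7 and 5 siNEG reads.

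**Figure D4:**
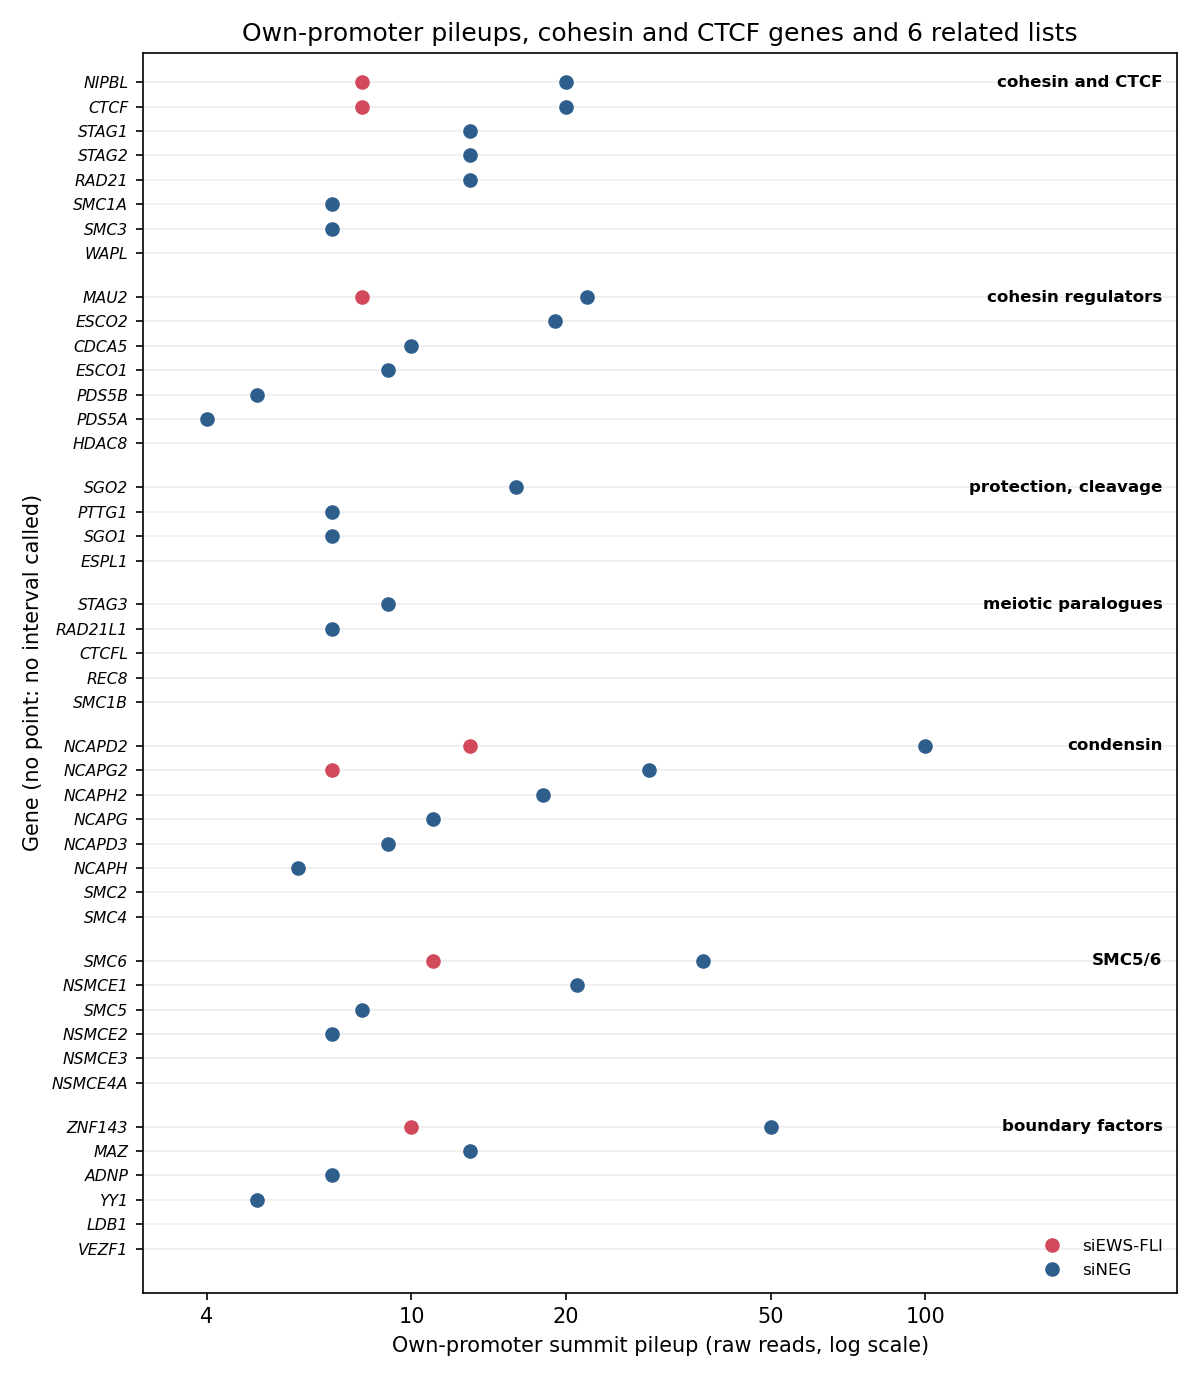
Promoter summit pileup in raw reads on a log axis for the 8 cohesin and CTCF genes and the 36 genes of 6 related lists, siEWS-FLI in red and siNEG in blue. A gene with no point had no interval called; NCAPD2, with 13 reads with siEWS-FLI and 100 with siNEG, stood above the rest.

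Over the 2 libraries, 11 other protein-coding genes had exactly the promoter pileups of CTCF and NIPBL, 8 reads with siEWS-FLI and 20 with siNEG. The first 3 by symbol were BANP, BARD1 and CCT3, each at a distance of 0 on the log2(pileup + 1) scale. The likeness rests on 2 values a gene. Neighbouring genes that share a start region each enter this count, so the 11 genes need not be 11 separate sites.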

How the data were processed

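CUT&Tag for EWS-FLI was run in 2 TC32 libraries, 1 per group, and peaks were called per library. Per the submitters' processing notes, which give no roles, the tools were MACS2 2.2.9.1, Bowtie2 2.4.5 and Trim Galore 0.6.6, and the build was hg38. Whether a control library was used and how duplicates were handled is not given in the sources used here. The deposited columns give a display score, which was not used, the fold enrichment (a linear ratio) at the summit, and its −log10 p-value and −log10 q-value as the authors' caller wrote them.

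Lines sharing an interval were merged, keeping the highest −log10 q, on chromosomes 1 to 22, X and Y. The summit pileup was solved as the whole number that gives both the deposited fold and −log10 p under a Poisson tail, within 0.001 in log10 p (in proportion above 10); it solved 100% of lines in both libraries, and the solver was tested on simulated data. Sharing meant an overlap of at least 1 base. Gene positions, starts and promoter windows came from RefSeq, GRCh38.p14; 15842 of 20037 protein-coding genes had a listed start and either gene end was used for the other 4195. The gene table gives no exons. Shares have exact Clopper-Pearson intervals, pileups exact Poisson intervals, ratios exact conditional binomial intervals, all at 95% and for counting error only. A site with no call may still hold reads.

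The genes, lists and rules were chosen with earlier results of these data known. Named were all 8 genes and their intervals, neighbours at shared or strongest sites, up to 6 genes per list by pileup, and the 3 genes nearest CTCF in pileup; other neighbours with an interval were named after their values were seen. Alternatives varied the window, threshold, width, list length, promoter distance, overlap rule, merging and scaling. Computations used Python 3.11.15, numpy 2.4.6, pandas 2.3.3 and scipy 1.17.1.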

Additional observations from a re-analysis of the deposited data

How the results depend on the processing

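Of 43 alternatives over 9 results, 31 stayed within 1.5 times the count or within the 95% interval of the share or ratio. The other 12 moved further, and reversal of a direction was not assessed. The windows held fewer intervals when narrowed or filtered, by construction. With siEWS-FLI they held 2 at 10 kb and 0 in the gene span alone, 1 at −log10 q of at least 5 and 2 wider than 200 bases. With siNEG they held 17 at 50 kb, 9 at 10 kb and 7 in the gene span, 16 at −log10 q of at least 5, and 10 with the siNEG list cut to the length of the siEWS-FLI list. Promoter sites with siEWS-FLI numbered 1 at −log10 q of at least 5 (NIPBL), 1 among intervals wider than 200 bases (CTCF) and 0 when the interval had to cover the start base. With siNEG they numbered 5 to 7 under every alternative run. The shared percentage ran between 6.25% and 22.2%. No paired analysis was possible because each group has 1 library. Leaving out a replicate was not possible for the same reason. Depth differed between the libraries and limits the comparison, and its part in the missing calls was not tested. Unscaled, the 95% interval of a 7-read siNEG pileup was 2.81 to 14.4. With the local background of siNEG, the siEWS-FLI calling limits at SMC3 and SMC1A were 3 and 4 reads.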
